A study of Mus musculus with 26 samples.

Results

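The Tdpoz genes are a family of related copies clustered on mouse chromosome 3. Their proteins join a TRAF-like (MATH) domain to a BTB/POZ domain, the same pair of domains as in Spop, an adaptor that brings substrates to the CUL3 ubiquitin ligase. Several copies are known as genes of the 2-cell (2C) embryo, a stage of zygotic genome activation in the mouse at which the transcription factor Dux is active. A super-enhancer is a long stretch of densely occupied enhancers, and the study drew one (Tdpoz-SE) between Tdpoz4 and Tdpoz3 and deleted it. The 7 copies described here, Tdpoz1, Tdpoz2, Tdpoz3, Tdpoz4, Tdpoz5, Tdpoz6 and Tdpoz9, were taken by gene name from the 55291 genes of the count table.

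Poly(A) RNA was sequenced from R1 mouse embryonic stem cells (ESC) in 26 libraries, 2 for each of 13 groups, with totals of 14401452 to 39402840 reads counted on genes. Cells labelled WT were left untreated (ESC), given DMSO, induced with 0.53 µM retinoic acid (RA) for 48 h or with 4 nM of the splicing inhibitor pladienolide B (PlaB) for 4 days, or given 4 µg/mL doxycycline for 24 h to overexpress Dux (Dux OE), its phase separation-deficient mutant (Dux R70A OE) or Zscan4 (Zscan4 OE). Knockdown of Dux (Dux KD) was combined with RA, PlaB and Zscan4 OE, and knockout of the Tdpoz super-enhancer (SE KO) with RA, PlaB and Dux OE, at the same doses and times where the labels give them. One SE KO RA library (replicate 1) carries the genotype tag WT although its title reads SE KO. Both Dux KD Zscan4 OE libraries carry the treatment tag "no" and no time. None of the 13 groups is SE KO without induction. The number of SE KO clones, the deleted coordinates and the sequenced shRNA are not given in the sources used here. The paper's captions give 2 biological replicates for SE KO with Dux OE and for SE KO with RA. How the cultures or clones of any group were kept apart is not given in the sources used here. The p-values thus measure only the spread between these libraries. In bulk RNA, fewer cells that express a copy cannot be told apart from less RNA per cell.

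As labelled, Duxf3, a copy of Dux in its native array, was lower in each Dux KD group than in its induction, by a log2 fold change of -1.93 (SE 0.457) in RA. The list of 8 ESC markers summed to 1730 to 7190 CPM over the libraries. The 6 fibroblast markers reached 115 and 117 CPM in SE KO Dux OE against 47.2 and 44.5 CPM in Dux OE, with 4 of 5 tested members higher in SE KO (edgeR), and 5 primitive endoderm markers summed to 3.11 to 79.0 CPM, lowest in Dux OE and highest in Dux KD RA. SE KO Dux OE had the deepest libraries. The part of these differences in the results was not tested.

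The copies are short genes with related coding sequences, and the first 60 coding bases are shown because the counts of single copies rest on such differences. All 7 have the start, end and strand of a GENCODE M21 (GRCm38) gene. The stretches below run 5′ to 3′ from the start codon, with bases that differ from Tdpoz3 in capitals. The stretch of Tdpoz6 has 48 bases because its coding sequence starts later.
Tdpoz3: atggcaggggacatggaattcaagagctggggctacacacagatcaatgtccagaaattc
Tdpoz4: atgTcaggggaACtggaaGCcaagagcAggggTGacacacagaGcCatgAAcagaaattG
Tdpoz1: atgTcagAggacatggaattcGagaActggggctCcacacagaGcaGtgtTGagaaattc
Tdpoz9: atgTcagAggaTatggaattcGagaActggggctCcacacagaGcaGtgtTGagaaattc
Tdpoz2: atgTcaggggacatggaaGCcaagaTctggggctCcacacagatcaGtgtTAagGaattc
Tdpoz5: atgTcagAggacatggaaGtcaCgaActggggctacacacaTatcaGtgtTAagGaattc
Tdpoz6: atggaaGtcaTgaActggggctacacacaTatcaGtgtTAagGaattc

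On the + strand lie Tdpoz4 (chr3:93796398-93797510) and Tdpoz3 (chr3:93826020-93827117), which face the same way on either side of the drawn super-enhancer. On the - strand lie Tdpoz2 (chr3:93651542-93652686), Tdpoz1 (chr3:93669333-93676310), Tdpoz6 (chr3:93692050-93693070), Tdpoz5 (chr3:93960292-93961314) and Tdpoz9 (chr3:94047981-94054885). Over the 60 bases above, Tdpoz4 differs from Tdpoz3 at 13 positions and Tdpoz1 at 9. Over the whole coding sequence, identity between pairs of the 7 copies ranged from 76.6% (Tdpoz3 and Tdpoz4) to 98.9% (Tdpoz5 and Tdpoz6), and Tdpoz1 and Tdpoz3 were 88.1% identical. Tdpoz1 and Tdpoz9 have 2 exons, and the other 5 copies are single-exon models that begin 0 to 23 bases before the start codon.

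The RefSeq promoter windows of Tdpoz1 and Tdpoz9 (GRCm38.p6, - strand, 250 bases before to 50 after the start of the gene) are shown because these copies rose together with Dux. Capitals mark TATATAA, the only motif searched, on both strands.
Tdpoz1 (chr3:93676234-93676533): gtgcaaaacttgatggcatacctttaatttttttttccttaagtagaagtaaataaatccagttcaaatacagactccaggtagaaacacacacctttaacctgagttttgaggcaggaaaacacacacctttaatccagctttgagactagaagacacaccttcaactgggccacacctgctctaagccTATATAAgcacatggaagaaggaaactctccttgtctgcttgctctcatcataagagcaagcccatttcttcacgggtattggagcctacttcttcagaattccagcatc
Tdpoz9 (chr3:94054836-94055135): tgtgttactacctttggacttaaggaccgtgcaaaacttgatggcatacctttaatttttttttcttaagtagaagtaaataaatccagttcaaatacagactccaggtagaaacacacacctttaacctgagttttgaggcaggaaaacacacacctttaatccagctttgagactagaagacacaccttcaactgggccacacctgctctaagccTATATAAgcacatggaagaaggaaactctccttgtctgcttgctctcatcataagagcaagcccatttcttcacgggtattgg

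Aligned over 273 positions, these windows are 99.6% identical. TATATAA starts at position -60 of the RefSeq start of Tdpoz1 and -33 of that of Tdpoz9. The RefSeq start of Tdpoz1 lies 27 bases inside the gene model of the count table, and from the start of the gene models the motif is at -33 in both. Among relatives, it is also in the Tdpoz8 window from chr3:93068573 (at -29) and in that of Spopfm2 (at -31). The Tdpoz8 window from chr3:93073271, 94% identical to that of Tdpoz4, and the window of Tdpoz7 lack it. Of the 32817 RefSeq windows of this length, 3.25% hold it. Of the other members, the table also holds windows for Tdpoz4 and Tdpoz5, which lie directly before the start codon and hold no TATATAA. Sequence farther upstream of these copies was not searched.

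How far a read can be given to 1 copy differs between the copies. Of all 150-base windows of the GENCODE M21 transcript, another gene also holds 6.54% for Tdpoz4, 8.84% for Tdpoz2, 12.4% for Tdpoz1, 28.7% for Tdpoz6, 33.4% for Tdpoz3 and 79.3% for Tdpoz9. Every window of Tdpoz5 is shared, since its transcript is identical to that of Tdpoz7. The gene that shares the windows of Tdpoz3 is Gm4982, and those of Tdpoz4 are held by Tdpoz8 and Gm5541. Read length and how multi-mapping reads were counted are not given in the sources used here, so how uncertain the counts of single copies are is not known from these shares. At 50 bases the shared windows were 41.2% for Tdpoz4, 45.1% for Tdpoz1, 48.3% for Tdpoz2, 66.2% for Tdpoz3, 68.9% for Tdpoz6 and 90.1% for Tdpoz9. They count reads in the table's gene models only, and the library kit does not mark strand.

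**Figure D1:**
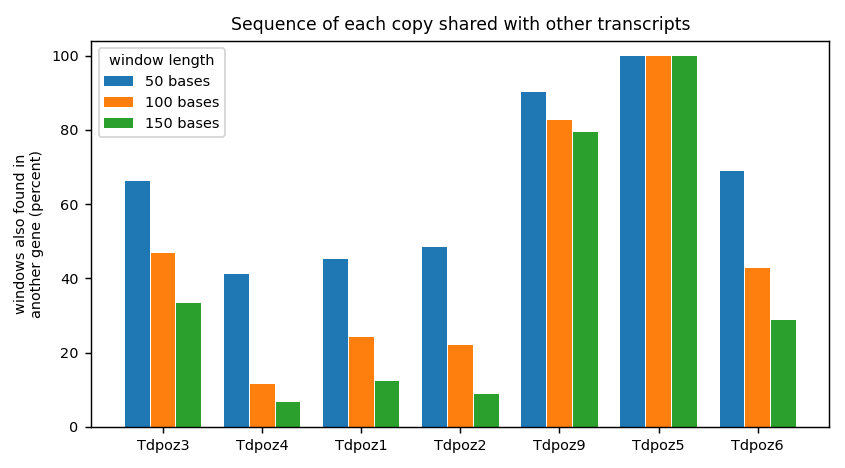
Percent of all windows of 50, 100 or 150 bases (bar colours) of each copy's transcript that a transcript of another gene also holds, on either strand. At 150 bases Tdpoz4 shares 6.54%, Tdpoz3 33.4%, and Tdpoz5 100%.

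Of the 7 copies, Tdpoz3 and Tdpoz4 held most counts in Dux OE. Values are CPM, counts scaled to library totals with edgeR's TMM factors, with a floor of 3 counts (0.0796 to 0.226 CPM). Summed over the 7 copies, CPM was 74.5 ± 5.33 (SD, n = 2) in Dux OE, 20.5 ± 3.53 in SE KO Dux OE, 10.98 ± 0.684 in PlaB, 4.87 ± 0.943 in Zscan4 OE, 2.97 ± 0.300 in Dux KD RA and under 1.5 in each of the other 8 groups. Tdpoz3 and Tdpoz4 held 93.4% and 93.0% of the counts of these 7 copies in the Dux OE libraries, and 72.4% and 72.6% of those of all 9 genes named Tdpoz, since Tdpoz8 stood at 21.1 CPM there. All 7 copies had counts in Dux OE and SE KO Dux OE, and 1 to 5 copies in every other group. Per length, as RPKM (CPM per kilobase of the gene model), Dux OE held 33.6 ± 2.04 of Tdpoz3, 29.3 ± 2.26 of Tdpoz4, 1.69 ± 0.220 of Tdpoz2, 0.857 ± 0.249 of Tdpoz1 and 0.372 ± 0.0434 of Tdpoz9.

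**Figure D2:**
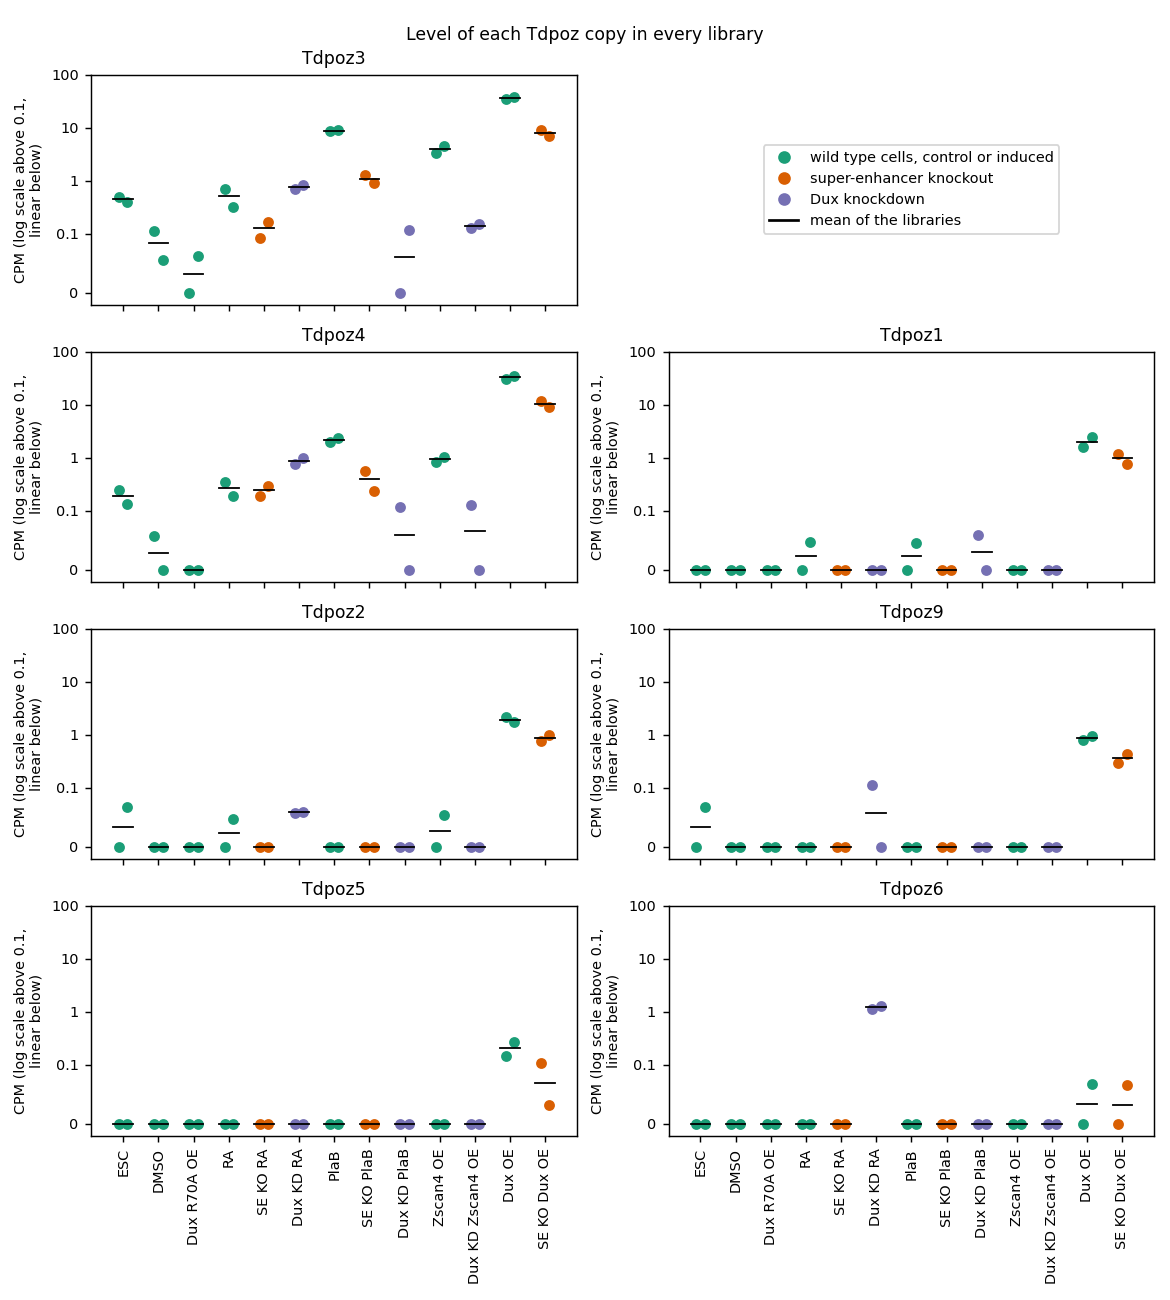
CPM of each copy in every library (points) with the mean of each group (line), on an axis that is logarithmic above 0.1 CPM and linear below. Tdpoz3 and Tdpoz4 are above 30 CPM in both Dux OE libraries, Tdpoz1, Tdpoz2, Tdpoz9 and Tdpoz5 are seen above 1 count almost only with Dux OE, and Tdpoz6 is above 1 CPM only in Dux KD RA.

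Dux overexpression raised 5 of the 6 copies that could be tested (Tdpoz1, Tdpoz2, Tdpoz3, Tdpoz4 and Tdpoz9) over ESC, where 7.38% of the 20953 genes tested were called higher. A gene was called in edgeR's quasi-likelihood test when its Benjamini-Hochberg adjusted p over all genes tested was under 0.05 and its log2 fold change was 1 or more in size. Tdpoz5 did not pass the filter on low counts. These 6 passed it through the groups in which they are high, so the count describes them and is not a share of the family.

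Tdpoz3 had 8 and 6 counts in ESC (0.498 and 0.400 CPM) and 484 and 569 in Dux OE (35.3 and 38.4 CPM). Tdpoz4 had 4 and 2 counts in ESC and 423 and 509 in Dux OE (30.8 and 34.4 CPM). Neither copy overlapped between the groups, and 33.7% of all genes tested were likewise higher in both Dux OE libraries than in both ESC libraries. The log2 fold change was 6.34 (SE 0.305, adjusted p = 2.55e-15, edgeR) for Tdpoz3 and 7.35 (SE 0.384, adjusted p = 3.53e-14, edgeR) for Tdpoz4.

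The other copies rose from the floor. Tdpoz1 had 22 and 36 counts in Dux OE and 0 in both ESC libraries, at least 10.4-fold higher (adjusted p = 9.96e-05, edgeR). Tdpoz2 had 29 and 26 counts against 0 and 1, a ratio of 59.9 with a 95% counting interval of 10.3 to 2410 (adjusted p = 0.000138, edgeR). Tdpoz9 had 11 and 14 counts against 0 and 1, a ratio of 27.2 (4.46 to 1120, adjusted p = 0.00667, edgeR). That call of Tdpoz9 was lost without ESC replicate 1 (adjusted p = 0.0791, edgeR) and with DESeq2 (adjusted p = 0.258). Intervals cover counting error only. Tdpoz5 had 2 and 4 counts in Dux OE and 0 in ESC.

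With the mutant Dux R70A, none of the copies was above 1 count. Duxf3 had 0 and 0 counts in Dux R70A OE, 55 and 48 in Dux OE and 3 and 0 in ESC. Whether Duxf3 counts include reads of either transgene is not given in the sources used here. The expression of the mutant therefore cannot be read from them. Against Dux OE the same 5 copies were called lower, beside 7.51% of genes tested, though DESeq2 did not call Tdpoz9 (adjusted p = 0.0798). Tdpoz3 had 0 and 1 counts, a ratio of 1280 (228 to 50400) below Dux OE (adjusted p = 2.06e-16, edgeR), and Tdpoz4 had none, at least 187-fold lower (adjusted p = 5.93e-15, edgeR). Against ESC both were also called lower (2 of 6 tested, 6.72% of genes), with adjusted p = 0.00238 for Tdpoz3 and 0.0215 for Tdpoz4 (edgeR). Those falls start from 2 to 8 counts, and with DMSO in place of ESC neither was called (adjusted p = 0.487 and 0.435, edgeR). Without ESC replicate 1, or without either Dux R70A OE library, Tdpoz4 was not called (adjusted p = 0.113, 0.0995 and 0.0813, edgeR).

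Tdpoz3 and Tdpoz4 were higher in PlaB than in DMSO and in Zscan4 OE than in ESC. PlaB gave 177 and 199 counts of Tdpoz3 (8.56 and 9.02 CPM) against 2 and 1 in DMSO, a ratio of 105 (35.7 to 512, adjusted p = 8.02e-14, edgeR). It gave 40 and 53 counts of Tdpoz4 (1.93 and 2.40 CPM) against 1 and 0, a ratio of 78.0 (13.7 to 3120, adjusted p = 1.54e-08, edgeR). These were the 2 of 6 tested copies called, where 32.3% of genes were called higher, a share near that of the copies. The remaining copies had 0 or 1 count in PlaB. From DMSO to PlaB the ESC markers went from 6960 and 7190 to 2570 and 2520 CPM and the primitive endoderm markers from 5.67 and 4.71 to 22.7 and 26.5 CPM, and their part in the result was not tested.

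Zscan4 OE gave 52 and 82 counts of Tdpoz3 (3.36 and 4.45 CPM), a log2 fold change of 3.11 over ESC (SE 0.364, adjusted p = 1.68e-07, edgeR). Tdpoz4 had 13 and 19 counts (0.841 and 1.03 CPM), a log2 fold change of 2.25 (SE 0.601, adjusted p = 0.00391, edgeR), which was not called without ESC replicate 2 (adjusted p = 0.0516, edgeR). These 2 copies of 6 were called higher, as were 7.25% of genes. No other copy had more than 1 count.

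With RA the counts were low. Tdpoz3 had 16 and 7 counts (0.704 and 0.326 CPM) and Tdpoz4 8 and 4 (0.352 and 0.186 CPM). Both were called higher than in DMSO (2 of 6, against 20.6% of genes), with ratios of 6.22 (1.88 to 32.4, adjusted p = 0.00287, edgeR) and 9.74 (1.44 to 416, adjusted p = 0.0184, edgeR). Against ESC neither was (log2 fold changes of 0.20 and 0.48, adjusted p = 0.753 and 0.604, edgeR). Without RA replicate 1 neither was called over DMSO (adjusted p = 0.0723 and 0.127, edgeR), and Tdpoz4 was also lost without DMSO replicate 2 (adjusted p = 0.145, edgeR). DMSO itself had less Tdpoz3 than ESC, with 2 and 1 counts against 8 and 6, a ratio of 5.39 (1.5 to 29.2, adjusted p = 0.0146, edgeR), the 1 copy called lower beside 7.91% of genes. That call was lost without ESC replicate 1 (adjusted p = 0.0826) or DMSO replicate 2 (adjusted p = 0.108, edgeR).

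In order of mean CPM, Tdpoz3 stood at 36.9 in Dux OE, 8.79 in PlaB, 7.90 in SE KO Dux OE, 3.91 in Zscan4 OE, 1.09 in SE KO PlaB, 0.756 in Dux KD RA, 0.515 in RA and 0.449 in ESC. The neighbours PlaB and SE KO Dux OE did not differ beyond their spread (adjusted p = 0.506, edgeR), nor did any neighbours from SE KO PlaB downward. Tdpoz4 stood at 32.6 in Dux OE, 10.3 in SE KO Dux OE, 2.17 in PlaB, 0.936 in Zscan4 OE, 0.873 in Dux KD RA, 0.398 in SE KO PlaB, 0.269 in RA, 0.241 in SE KO RA and 0.191 in ESC. Its first 3 steps passed the threshold on p (adjusted p = 4.99e-06, 1.42e-08 and 0.00389, edgeR) and no later one did. SE KO Dux OE thus lies above PlaB for Tdpoz4, and for Tdpoz3 these groups did not differ beyond their spread.

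Tdpoz3 and Tdpoz4 were lower with the super-enhancer deleted in Dux OE and PlaB. In RA Tdpoz3 alone was called lower, from few counts and not in every leave-out. These comparisons ask what each copy keeps without the element that lies beside it. In Dux OE, Tdpoz3 fell from 35.3 and 38.4 CPM to 8.97 and 6.84 CPM (338 and 209 counts), a log2 fold change of -2.22 (SE 0.198, adjusted p = 7.58e-09, edgeR). Tdpoz4 fell from 30.8 and 34.4 CPM to 11.7 and 8.93 CPM (440 and 273 counts), a log2 fold change of -1.66 (SE 0.218, adjusted p = 4.99e-06, edgeR). Neither copy overlapped between the groups, nor did 33.1% of all genes tested in the same direction. They were the 2 of 6 tested copies called, where 3.84% of genes were called lower. The summed fibroblast markers above were higher in the same SE KO libraries, with none of the 6 at 0 counts there and 2 at 0 in Dux OE, and their part in the result was not tested. Duxf3 was lower in SE KO Dux OE (1.37 CPM) than in Dux OE (3.63 CPM), and the part of this difference was not tested either.

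The copies farther from the super-enhancer had lower means in SE KO Dux OE too, without passing the test. Tdpoz1 had 45 and 23 counts (1.19 and 0.752 CPM, against 1.60 and 2.43 CPM), a log2 fold change of -1.04 (SE 0.557, adjusted p = 0.191, edgeR). Tdpoz2 stood at 0.769 and 0.981 CPM against 2.11 and 1.76 CPM, a log2 fold change of -1.14 (SE 0.539, adjusted p = 0.132, edgeR). Tdpoz9 stood at 0.292 and 0.425 CPM against 0.802 and 0.946 CPM, a log2 fold change of -1.29 (SE 0.694, adjusted p = 0.197, edgeR). Fitting the 2 groups alone called Tdpoz1 (adjusted p = 0.0345) and Tdpoz2 (adjusted p = 0.0238, edgeR). Tdpoz5 had 4 and 1 counts and Tdpoz6 0 and 2.

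Against ESC, SE KO Dux OE had the same 5 copies called higher as Dux OE, beside 9.02% of genes. Genotype and doxycycline also differ between SE KO Dux OE and ESC, and no group is SE KO without induction. The part of Dux in these rises therefore cannot be told apart. Tdpoz3 was higher by a log2 fold change of 4.12 (SE 0.327, adjusted p = 1.31e-10, edgeR) and Tdpoz4 by 5.70 (SE 0.408, adjusted p = 3.02e-11, edgeR). These share the ESC libraries with the Dux OE comparison. The call of Tdpoz9 (adjusted p = 0.0478, edgeR) was lost without any 1 of the 4 libraries (adjusted p = 0.0624 and 0.115 without SE KO Dux OE replicates 1 and 2, 0.260 and 0.0787 without ESC replicates 1 and 2, edgeR).

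**Figure D3:**
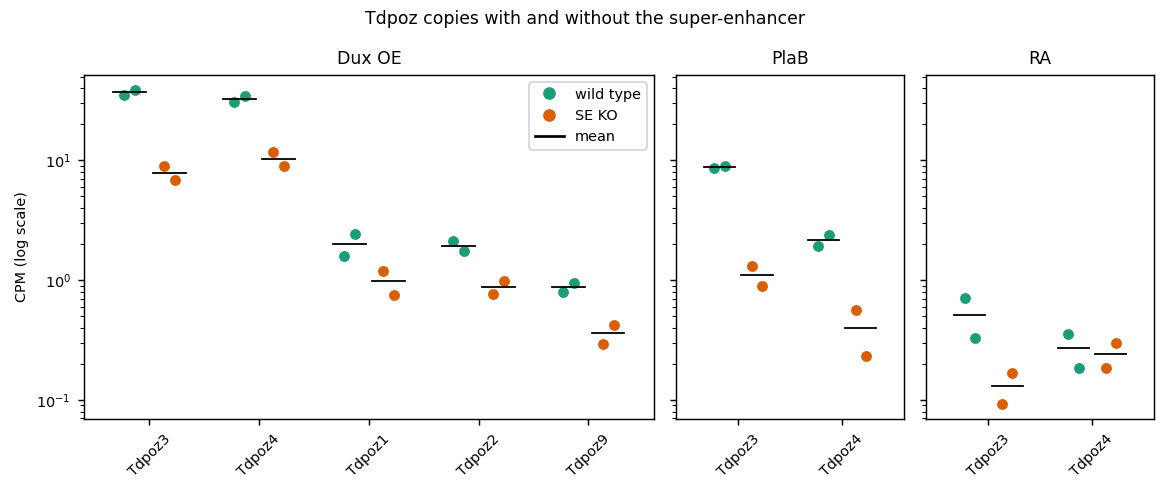
CPM (log scale) of the copies in wild type and SE KO libraries (points, with group means as lines) in each induction, for copies with more than 2 counts there. Tdpoz3 falls from 36.9 to 7.90 CPM in Dux OE, and it also falls in PlaB. In RA it goes from 16 and 7 counts to 2 and 4, and Tdpoz4 overlaps between groups.

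In PlaB both copies fell. Tdpoz3 went from 8.56 and 9.02 CPM to 1.30 and 0.886 CPM (30 and 19 counts), a log2 fold change of -2.995 (SE 0.261, adjusted p = 5.42e-11, edgeR). Tdpoz4 went from 1.93 and 2.40 CPM to 0.563 and 0.233 CPM (13 and 5 counts), a log2 fold change of -2.41 (SE 0.392, adjusted p = 5.03e-06, edgeR). The groups did not overlap for either copy, nor for 42.7% of all genes tested in the same direction, and 2 of 6 tested copies were called where 26.1% of genes were called lower, a share near that of the copies. SE KO PlaB also had 5 of 8 ESC markers and 3 of 5 primitive endoderm markers called higher (sums of 66.1 and 78.7 CPM against 22.7 and 26.5 CPM for the latter), and their part in the result was not tested. Both remained higher than in DMSO (2 of 6, 17.1% of genes), with ratios of 13.2 (4.25 to 66.0, adjusted p = 1.10e-05, edgeR) and 14.5 (2.29 to 604, adjusted p = 0.00325, edgeR). The call of Tdpoz4 over DMSO was lost without SE KO PlaB replicate 1 (adjusted p = 0.0633) and with ESC in place of DMSO (adjusted p = 0.221, edgeR).

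In RA counts were few. Tdpoz3 went from 16 and 7 counts to 2 and 4 (0.0930 and 0.169 CPM), a log2 fold change of -1.92 (SE 0.593, adjusted p = 0.00962, edgeR), the 1 of 6 tested copies called where 11% of genes were called lower. That call was lost without RA replicate 1 (log2 fold change -1.25, adjusted p = 0.209) and without SE KO RA replicate 1, the library with the conflicting genotype tag (-1.58, adjusted p = 0.0831, edgeR). In SE KO RA 5 of 8 ESC markers and 2 of 5 primitive endoderm markers were called lower (sums of 42.6 and 43.0 CPM against 64.7 and 67.3 CPM for the latter), and their part in the result was not tested. Tdpoz4 had 4 and 7 counts against 8 and 4, overlapping groups and a log2 fold change of -0.15 (SE 0.639, adjusted p = 0.876, edgeR). Over DMSO, Tdpoz4 alone was called in SE KO RA (1 of 6, 17.3% of genes), with a ratio of 8.74 (1.27 to 376, adjusted p = 0.0300, edgeR), which was lost without SE KO RA replicate 2 (adjusted p = 0.139), without DMSO replicate 2 (adjusted p = 0.199) and with ESC in place of DMSO (adjusted p = 0.740, edgeR).

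Differences between inductions in the effect of SE KO were tested as interactions in the same fit. For Tdpoz4 the effect in RA minus that in PlaB was 2.26 on the log2 scale (SE 0.789, adjusted p = 0.0149, edgeR), the 1 of 6 tested copies called where 20.7% of genes were called higher. For Tdpoz3 the effect in Dux OE minus that in PlaB was 0.78 (SE 0.332, adjusted p = 0.0460, edgeR), under the threshold on fold. In the contrasts of Dux OE with RA and with PlaB no copy was called (of 20.8% and 45.1% of genes either way), and Tdpoz3 in RA minus PlaB was 1.08 (SE 0.790, adjusted p = 0.243, edgeR). The call of Tdpoz4 was lost without SE KO PlaB replicate 2 (adjusted p = 0.0536), RA replicate 2 (0.0571) or SE KO RA replicate 2 (0.140, edgeR).

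The balance of Tdpoz3 to Tdpoz4 differed between inductions in these libraries, and is given as a description. Counted within a library and per base, the ratio was 1.16 and 1.13 in Dux OE and 0.779 and 0.776 in SE KO Dux OE. It was 4.49 and 3.81 in PlaB, 2.34 and 3.85 in SE KO PlaB, and 4.05 and 4.37 in Zscan4 OE. The ratios of Dux OE and SE KO Dux OE do not overlap, while one SE KO PlaB library lies among those of PlaB. In RA it was 2.03 and 1.77, in SE KO RA 0.507 and 0.579, and in Dux KD RA 0.936 and 0.835, from 2 to 17 counts a copy. With 2 libraries a group an exact permutation test of such a ratio cannot reach significance, and none was run.

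**Figure D4:**
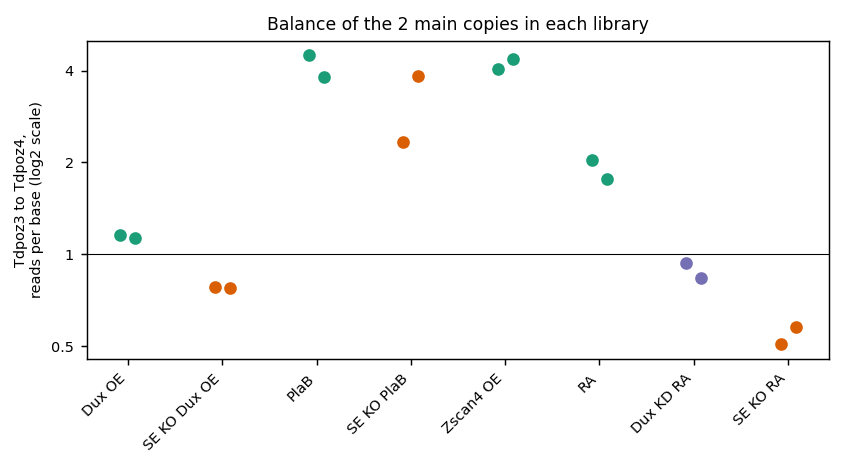
Ratio of Tdpoz3 to Tdpoz4 reads per base in each library (points, log2 scale), with green for wild type, orange for SE KO and purple for Dux KD. PlaB and Zscan4 OE lie near 4, Dux OE at 1.16 and 1.13, and SE KO Dux OE at 0.779 and 0.776.

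Genes that share sequence with these copies were measured in the same libraries. Gm4982, which shares the windows of Tdpoz3 and starts 426 kb from the midpoint between Tdpoz4 and Tdpoz3, had 6.78 and 8.04 CPM in Dux OE and 6.37 and 5.72 CPM in SE KO Dux OE, a log2 fold change of -0.29 (SE 0.348, adjusted p = 0.592, edgeR). Tdpoz8, another member of the family by name, stood at 20.3 and 21.9 CPM against 13.3 and 10.5 CPM (-0.82, SE 0.254, adjusted p = 0.0204, edgeR). Summing each copy with all genes that share a 150-base stretch with it, an alternative chosen after seeing the data, left log2 fold changes of -1.66 for Tdpoz3 with Gm4982 (adjusted p = 7.68e-07, edgeR) and -1.17 for Tdpoz4 with Tdpoz8 and Gm5541 (adjusted p = 2.06e-05, edgeR) in Dux OE. In Dux OE the sum for Tdpoz2 with Gm5773 and Gm9141 gave -0.45 (adjusted p = 0.320, edgeR) against -1.14 for Tdpoz2 alone, and the sum of Tdpoz1, Tdpoz9 and Gm9117 gave -0.98 (adjusted p = 0.170, edgeR). In PlaB the sums for Tdpoz3 and Tdpoz4 gave -2.38 and -1.27 (adjusted p = 1.67e-09 and 5.13e-05, edgeR). In RA the sum for Tdpoz4 was called, at -1.63 (adjusted p = 0.00145, edgeR).

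Along the locus, 26 tested genes start within 500 kb of that midpoint, 20 of them not members. In SE KO Dux OE, Tdpoz3 had the lowest log2 fold change of the 26. There 3 of the 20 others were called lower (Gm9113, Gm5543 and Spopfm1, at -1.25, -1.30 and -1.26), beside 3.84% of all genes tested. Spopfm1 is a Spop-like gene of the same cluster, 452.3 kb away. Gm5773, which starts at -38.8 kb, on the side of Tdpoz4, stood at -0.09 (SE 0.402, adjusted p = 0.913, edgeR). Other genes not called had lower values, among them Gm37430 at 59.6 kb (-1.74, SE 0.642, adjusted p = 0.0526, edgeR). Gm5541 at -182 kb stood at -0.94 (SE 0.264, adjusted p = 0.0112, edgeR), under the threshold on fold. Of the 20, only Tchh, S100a10 and Them4 had positive fitted values (1.03, 0.21 and 0.00069). In SE KO PlaB 7 of the 20 others were called lower and 1 higher, with 1 gene (Gm9121) below Tdpoz3. Of all genes tested, 26.1% were called lower there, a share near that of the 20. In SE KO RA 5 of the 20 were called lower, beside 11% of all genes tested. There 14 of the 26 had a lower fitted value than Tdpoz3, most from few counts.

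**Figure D5:**
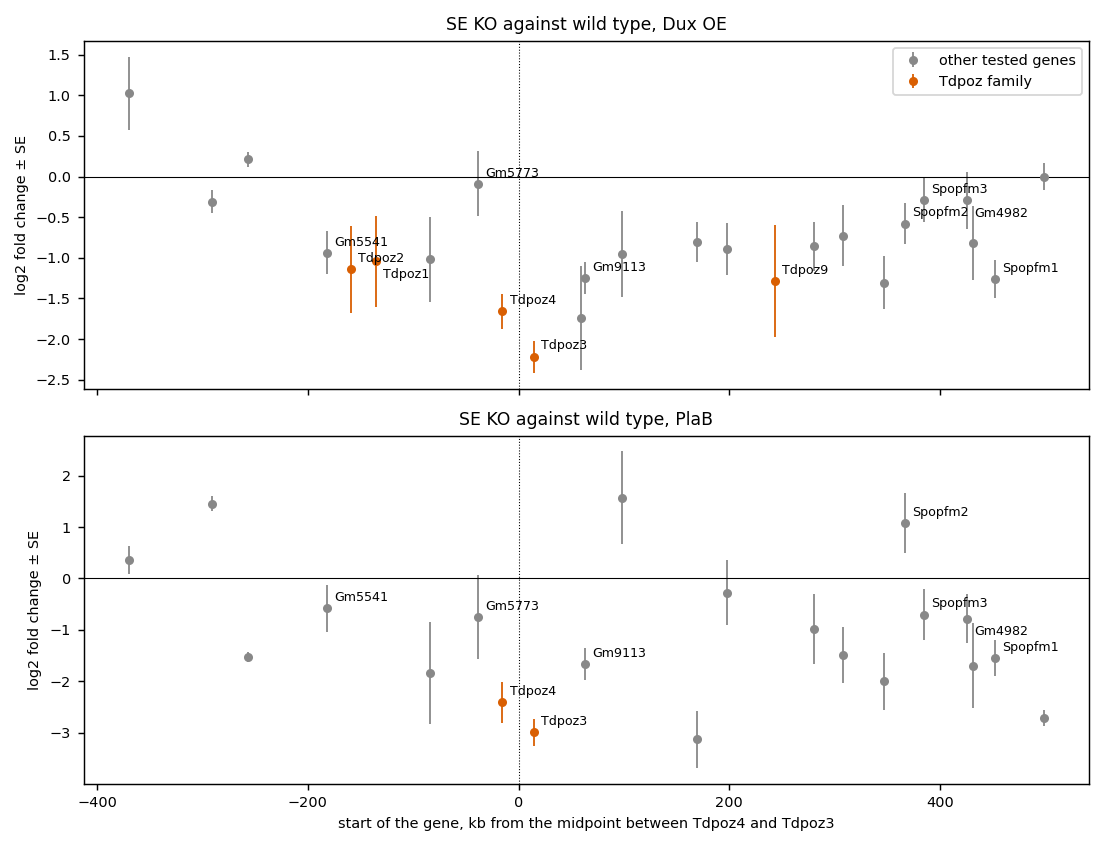
Log2 fold change of SE KO against wild type (± SE) for tested genes with an SE under 1, against the distance of their start from the midpoint between Tdpoz4 and Tdpoz3, in Dux OE (top) and PlaB (bottom). Tdpoz3 and Tdpoz4 sit next to the midpoint at -2.22 and -1.66 in Dux OE and -2.995 and -2.41 in PlaB.

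SE KO also lowered many 2C genes. Of a list of 35 2C genes without Tdpoz copies, 32 were tested, and SE KO lowered 12 in Dux OE, 26 in RA and 25 in PlaB and raised none. Their median log2 fold changes were -0.93, -2.98 and -2.23, beside -0.02, -0.04 and -0.07 over all genes. Zscan4c, a 2C gene of telomere maintenance, had log2 fold changes of -1.15, -3.17 and -4.01 in Dux OE, RA and PlaB. Zfp352, a zinc finger gene of the 2C stage, stood at -1.09, -2.01 and -1.76. Obox3, a homeobox gene of the early embryo, stood at -1.02 in Dux OE (adjusted p = 0.219, edgeR). Duxf3 stood at -1.40, -3.18 and -2.22, and each of these values of Zscan4c, Zfp352 and Duxf3 was called. Tdpoz3 and Tdpoz4 thus lay below the list's median in Dux OE and PlaB and above it in RA, and whether they fell more than these genes was not tested. The part of the lower Duxf3 in the falls of the copies was not tested either.

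Tdpoz3 and Tdpoz4 were lower in Dux KD PlaB than in PlaB and in Dux KD Zscan4 OE than in Zscan4 OE. In Dux KD PlaB, Tdpoz3 had 0 and 2 counts and Tdpoz4 2 and 0, ratios of 148 (40.7 to 1230, adjusted p = 1.01e-13, edgeR) and 36.6 (9.86 to 307, adjusted p = 5.19e-08, edgeR) below PlaB. They were 2 of 6 tested copies, where 28.8% of genes were called lower, a share near that of the copies. In the same libraries the ESC markers went from 2570 and 2520 CPM in PlaB to 5630 and 5590 CPM and the primitive endoderm markers from 22.7 and 26.5 to 9.73 and 10.2 CPM, and their part in the result was not tested. In Dux KD Zscan4 OE, Tdpoz3 had 2 and 2 counts and Tdpoz4 2 and 0, ratios of 28.4 (10.8 to 106, adjusted p = 1.45e-08, edgeR) and 13.6 (3.46 to 117, adjusted p = 0.000577, edgeR) below Zscan4 OE (2 of 6, 5.35% of genes). Neither Dux KD group held a copy above 2 counts. Zscan4c had 12 and 15 counts in Dux KD Zscan4 OE, against 1545 and 1897 in Zscan4 OE and 92 and 92 in ESC. Whether Zscan4 was induced in these libraries, which carry the treatment tag "no", is not known from the labels. The part of the lower Zscan4c in the result was not tested.

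In Dux KD RA no copy was called lower. Duxf3 kept 16 and 6 counts there, against 49 and 59 in RA. It had 1 and 0 counts in Dux KD PlaB and also in Dux KD Zscan4 OE. Of the 32 tested genes of the 2C list, 8 were called lower in Dux KD RA and 31 in Dux KD PlaB. In Dux KD Zscan4 OE 27 were called lower and 1 higher. The part of the Duxf3 left in the result was not tested. Tdpoz3 had 12 and 14 counts against 16 and 7, a log2 fold change of 0.54 (SE 0.435, adjusted p = 0.358, edgeR). Tdpoz4 had 13 and 17 counts (0.746 and 1.0 CPM) against 8 and 4, a log2 fold change of 1.66 (SE 0.516, adjusted p = 0.0129, edgeR). Tdpoz4 and Tdpoz6 were the 2 of 6 copies called higher, beside 6.41% of genes. Tdpoz4 was not called without RA replicate 2 (adjusted p = 0.122), without Dux KD RA replicate 2 (0.107) or when summed with Tdpoz8 and Gm5541 (0.0576, edgeR).

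Tdpoz6 was seen in this group almost alone. It had 20 and 22 counts in Dux KD RA (1.15 and 1.3 CPM), 1 count in Dux OE, 2 in SE KO Dux OE and 0 in the other 10 groups. Against RA it was at least 8.99-fold higher (adjusted p = 0.000399, edgeR). The primitive endoderm markers summed to 76.6 and 79.0 CPM in Dux KD RA and 64.7 and 67.3 CPM in RA, and their part in the result was not tested. Tdpoz5 and Tdpoz7, which share 28.7% of its 150-base windows, had no counts in Dux KD RA. Gm5543 also holds some of its 150-base windows, and the counts of Gm5543 in Dux KD RA are not given here. The antisense gene Gm18433, whose introns span Tdpoz6, had 0 counts in all libraries and no exon over it. DESeq2 gave this copy no adjusted p in that comparison, and 0.0945 for the difference from SE KO RA, which edgeR called.

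Copies were higher in SE KO than in Dux KD in PlaB and lower in RA. Duxf3 stood at 1.87 CPM in SE KO PlaB and 0.0295 CPM in Dux KD PlaB. In RA it stood at 0.258 CPM in SE KO (2 and 10 counts) and 0.636 CPM in Dux KD (16 and 6 counts), overlapping groups. The part of these Duxf3 levels in the result was not tested. In PlaB, Tdpoz3 and Tdpoz4 were higher in SE KO than in Dux KD (2 of 6, 12.5% of genes), by ratios of 18.5 (4.86 to 157, adjusted p = 1.11e-05, edgeR) and 6.81 (1.63 to 60.5, adjusted p = 0.0140, edgeR). The call of Tdpoz4 was lost without SE KO PlaB replicate 1 (adjusted p = 0.180) or Dux KD PlaB replicate 2 (0.150, edgeR). In RA, Tdpoz3 (log2 fold change -2.45, SE 0.572, adjusted p = 0.000657, edgeR), Tdpoz4 (-1.82, SE 0.525, adjusted p = 0.00467, edgeR) and Tdpoz6 (at least 9.17-fold, adjusted p = 0.000177, edgeR) were lower in SE KO than in Dux KD (3 of 6, 17% of genes). Without Dux KD RA replicate 2 the call of Tdpoz4 was lost (adjusted p = 0.0507, edgeR).

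The relatives by name were measured beside the copies. Per length, Spopfm1 reached 39.1 ± 0.897 RPKM in Dux OE, Tdpoz8 9.84 ± 0.538, Spopfm2 5.39 ± 0.755 and Spopfm3 4.53 ± 0.193, beside 33.6 for Tdpoz3. Dux OE raised these 4 over ESC, and Spop and Spopl were not called. Spop stood at 45.7 CPM in ESC and 37.3 CPM in Dux OE (log2 fold change -0.29, SE 0.112, adjusted p = 0.0524, edgeR). Spopl was lower in PlaB (5.59 CPM) than in DMSO (34.5 CPM, log2 fold change -2.62), and was higher than in PlaB both in SE KO PlaB (52.0 CPM, log2 fold change 3.21, SE 0.185, adjusted p = 8.27e-15, edgeR) and in Dux KD PlaB (24.6 CPM, log2 fold change 2.13). SE KO PlaB against DMSO was not called for Spopl (log2 fold change 0.59). Of 9 CUL3 ligase genes (among them Cul3, Rbx1, Spop and Keap1), none was called in SE KO Dux OE or SE KO RA, and 2 were higher and 1 lower in SE KO PlaB. Tdpoz7 had at most 3 counts in any library.

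Over the means of the 13 groups (log2 CPM with a prior count of 2), the copies fell into a pair and a trio. Pearson's r was 0.951 between Tdpoz3 and Tdpoz4, and 0.975 to 0.994 among Tdpoz1, Tdpoz2 and Tdpoz9. Between the pair and the trio it was 0.722 to 0.879, and Tdpoz6 stood at -0.01 to 0.18 with the others. These values share libraries, depth and the Dux OE groups, which dominate them. Of all other tested genes, the most alike to Tdpoz3 were Gm5309 (r = 0.976), A530040E14Rik (0.974), Esp24 (0.967), Msmb (0.967) and Gm43678 (0.966). The single most alike gene was Gm37980 for Tdpoz4 (0.987), Gm5890 for Tdpoz1 (0.996), Gm5157 for Tdpoz2 (0.992), Gm17611 for Tdpoz9 (0.994) and Gm36028 for Tdpoz6 (0.922).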

How the data were processed

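The authors deposited whole-number counts of reads per gene, not normalized, for 26 poly(A) RNA-seq libraries. The submitters' processing notes name FastQC, Trimmomatic, STAR, featureCounts, DESeq2 and mm10; versions, strand setting and handling of multi-mapping reads are not given in the sources used here, which bears on near-identical copies. All columns of the table were used, and libraries were grouped by title. Totals ranged from 14401452 to 39402840, so that 3 counts, the floor, equal 0.0796 to 0.226 CPM, and precision near it is low. Counts were tested with edgeR 4.0.16 (R 4.3.3) by quasi-likelihood in 1 fit of all libraries (TMM, filterByExpr, 20953 genes, prior count 0.125), with interactions as contrasts, and the code was tested on simulated data. Replicates differed by more than sampling noise (chi-square per degree of freedom 1.55 to 30.2). Ratios against groups at 1 to 3 counts carry exact 95% counting intervals. Sequences came from GENCODE M21 and RefSeq tables.

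Named are all 7 copies, Tdpoz and Spop relatives, examples of the 2C list, the genes most alike by Pearson's r, and Duxf3 and Zscan4c. Genes sharing sequence with a copy and genes of the locus were named after their values were seen. Members and lists were chosen with earlier results of these data known. Alternatives were RLE or library-size scaling, no filter, DESeq2 1.42.0, fits of the groups compared, a replicate block, no fold threshold, another prior count, control swaps and leaving out each library.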

Additional observations from a re-analysis of the deposited data

Results flagged for a closer look

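The effect of SE KO on Tdpoz4 differed between inductions. It was 2.26 higher on the log2 scale in RA than in PlaB (SE 0.789, adjusted p = 0.0149, edgeR), with 8 and 4 counts in RA, 4 and 7 in SE KO RA, 40 and 53 in PlaB and 13 and 5 in SE KO PlaB. When Tdpoz4 was summed with Tdpoz8 and Gm5541, the difference was -0.36 (adjusted p = 0.533, edgeR).

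The effect of SE KO on Tdpoz3 was 0.78 higher on the log2 scale in Dux OE than in PlaB (SE 0.332, adjusted p = 0.0460, edgeR), under the threshold on fold. It ranged from 0.54 to 1.08 over the alternatives, with adjusted p from 0.0206 to 0.223 (edgeR and DESeq2).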

How the results depend on the processing

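The falls of Tdpoz3 and Tdpoz4 in SE KO Dux OE and SE KO PlaB were called under each of 13 alternatives, with log2 fold changes of -2.43 to -1.66 and -1.87 to -1.17 in Dux OE and -3.30 to -2.38 and -3.18 to -1.27 in PlaB. Of these alternatives, dropping the fold threshold could not lose a call, and another prior count changes fold changes but not p-values. Counts of called copies moved by over 1.5 times as follows. Without the fold threshold, the difference between Dux OE and PlaB in the SE KO effect had 1 (Tdpoz3). DESeq2 called 1 in RA vs DMSO, 1 in Dux KD RA vs RA and 0 in SE KO RA vs DMSO. Fits of only the groups compared called 1 in Dux R70A OE vs ESC, 1 in RA vs DMSO, 4 in SE KO Dux OE vs Dux OE, 0 in SE KO RA vs DMSO and 1 in SE KO PlaB vs Dux KD PlaB. DMSO in place of ESC gave 0 in Dux R70A OE, and ESC in place of DMSO gave 0 in RA and 1 in SE KO PlaB. Copies summed with genes sharing 150 bases, added after seeing the data, gave 4 in PlaB vs DMSO, 2 in DMSO vs ESC, 2 in SE KO RA vs RA, 1 in Dux KD RA vs RA, 4 in Dux KD PlaB vs PlaB, 4 in SE KO PlaB vs DMSO and 0 in RA minus PlaB. In PlaB the copies other than Tdpoz3 and Tdpoz4 had 0 or 1 count, so calls of their sums there rest on counts of the partner genes. Gm5543, summed with Tdpoz6, had 23 and 20 counts in PlaB, and Gm5773, summed with Tdpoz2, had 11 and 2. The cause of the other moves was not tested.

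Leaving out 1 library gave 0 to 1 called copies in DMSO vs ESC, SE KO RA vs RA, SE KO RA vs DMSO and RA minus PlaB, 0 to 2 in RA vs DMSO and Dux OE minus PlaB, and 1 to 2 in Dux R70A OE vs ESC, Zscan4 OE vs ESC, Dux KD RA vs RA, SE KO PlaB vs DMSO and SE KO PlaB vs Dux KD PlaB. Without SE KO PlaB replicate 1 both copies were called in Dux OE minus PlaB (1.09 and 1.53). Directions reversed for Tdpoz4 in SE KO RA vs RA (-0.52 to 0.38 over leave-outs, with 0.13 without SE KO RA replicate 1) and for Tdpoz3 in the SE KO effect in Dux OE minus RA (-0.96 to 0.18, with 0.13 without RA replicate 2), none of them called. With copies summed, reversed values were -0.078 for Tdpoz3 in Dux KD RA vs RA, 0.26 and 0.45 for Tdpoz3 and Tdpoz4 in Dux OE minus RA, and -0.36 for Tdpoz4 in RA minus PlaB.

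Replicate numbers did not pair the libraries (correlations of deviations -0.0473 to 0.0237), and the replicate block left 5 copies called in Dux OE vs ESC and 2 in SE KO Dux OE vs Dux OE. Under the block 1 call was lost, Tdpoz9 in SE KO Dux OE vs ESC (adjusted p = 0.0645, edgeR). Low counts limit the comparisons of Tdpoz3 and Tdpoz4 between RA and SE KO RA (2 to 16 counts a library), and sequence shared between copies limits single-copy values.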
